A study of Mus musculus with 12 samples.

Results

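NF-kappa B is a family of transcription factors that drives inflammatory gene expression. Its 5 subunit genes (Nfkb1, Nfkb2, Rel, Rela and Relb) and 5 modulators, genes that inhibit it or alter its action (Nfkbia, Nfkbie, Nfkbiz, Tnfaip3 and Bcl3), were followed in the lungs of newborn mice given a bacterial endotoxin. These 10 genes were chosen by symbol from the 52550 genes in the deposited counts. All 10 were among the 15885 protein-coding genes that had enough reads to be tested. Whole lungs of 12 C57BL/6J mice were profiled by bulk RNA sequencing, 3 in each of 4 groups, and each mouse gave 1 library. The WT mice (Adm+/+) carried both copies of the adrenomedullin gene Adm, and the Adm+/- mice lacked 1 copy in every cell throughout life, so the loss was neither specific to the lung nor timed. That line was made on a 129/SvEv background and then backcrossed to C57BL/6J. Lipopolysaccharide (LPS) from E. coli was injected into the peritoneum at 6 mg/kg once daily for 3 doses from postnatal day 3, and control mice received phosphate-buffered saline (PBS) on the same schedule. Lungs were taken on postnatal day 5, 6 h after the last dose, so every mouse in the study had been injected 3 times. Replicates carry their library number. WT PBS comprised 3, 4 and 5, WT LPS 9, 10 and 11, Adm+/- PBS 6, 7 and 8, and Adm+/- LPS 1, 2 and 12.

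In resting cells, dimers of NF-kappa B subunits are held in the cytoplasm by IkappaB proteins. LPS acts through the receptor Tlr4 and a chain of adaptors and kinases that ends in the breakdown of IkappaB, which lets the dimers enter the nucleus and bind kappa B sites. Several genes switched on in this way encode the inhibitors themselves, and such feedback is known to limit the duration of the response in the inflamed lung. Only mRNA was measured here, neither the proteins nor the activity of NF-kappa B.

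The subunits fall into 2 kinds. Rela (p65), Relb and Rel (c-Rel) carry a transactivation domain, while Nfkb1 and Nfkb2 encode the precursors p105 and p100, which are processed to the DNA-binding proteins p50 and p52. In mm10, with positions from Gencode release M21, Nfkb1 (ENSMUSG00000028163) lies on chr3:135584655-135691547 on the minus strand, and its locus overlaps Gm43430 on the same strand. Nfkb2 (ENSMUSG00000025225) lies on chr19:46304320-46312385 on the plus strand and shares exonic positions with AC114539.1 and Psd on the opposite strand. Rel (ENSMUSG00000020275) lies on chr11:23736847-23770970 (minus), Rela (ENSMUSG00000024927) on chr19:5637483-5648130 (plus) and Relb (ENSMUSG00000002983) on chr7:19606217-19629438 (minus). Of the modulators, Nfkbia (ENSMUSG00000021025) lies on chr12:55489410-55492647 (minus), Nfkbie (ENSMUSG00000023947) on chr17:45555703-45563169 (plus) and Nfkbiz (ENSMUSG00000035356) on chr16:55811375-55838899 (minus). Tnfaip3 (ENSMUSG00000019850) lies on chr10:19000910-19015657 (minus), and Bcl3 (ENSMUSG00000053175) on chr7:19808462-19822770 (minus), where it overlaps Gm16174 and Gm16175 on the opposite strand. Bcl3 shares exonic positions with 1 of its 2 neighbours. Whether reads were assigned by strand is not given in the sources used here. Reads at the shared exonic positions of Nfkb2 and Bcl3 therefore cannot be told apart from those of the opposite strand.

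Because these genes include known targets of NF-kappa B, their promoters were searched for the kappa B consensus on both strands. RefSeq promoter windows (GRCm38.p6, the assembly also named mm10, from 250 bases before to 50 after a transcription start) were held for 7 of the 10 genes, in 10 windows. A match was found in 5 of those genes (Nfkb2, Rel, Nfkbia, Tnfaip3 and Bcl3) and in 7 windows. Of all 32851 promoter windows of that length, 5.8% held the consensus. A looser pattern, GGG and CC with any 5 bases between them, includes every consensus match. It was in all 10 windows and in 50.8% of all promoters. The stretches shown read 5′ to 3′ on the strand of the gene, with the consensus match in capitals. For Nfkbia and Rel the 250 bases before the start are printed, and for the others 30 bases that hold the match.
Nfkbia, chr12:55492648-55492897, minus strand: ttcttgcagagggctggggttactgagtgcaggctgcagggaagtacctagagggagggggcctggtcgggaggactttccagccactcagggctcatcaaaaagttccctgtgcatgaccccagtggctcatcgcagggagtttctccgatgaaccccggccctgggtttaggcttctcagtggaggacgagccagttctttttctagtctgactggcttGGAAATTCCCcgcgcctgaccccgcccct
Rel, chr11:23770970-23771219, minus strand: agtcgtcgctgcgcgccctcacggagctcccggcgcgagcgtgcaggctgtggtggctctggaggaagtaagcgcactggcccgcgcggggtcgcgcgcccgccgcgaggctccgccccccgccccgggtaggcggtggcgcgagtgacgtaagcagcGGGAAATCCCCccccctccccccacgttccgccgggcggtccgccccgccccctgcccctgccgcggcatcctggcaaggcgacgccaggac
Nfkb2, chr19:46304688-46304717, plus strand: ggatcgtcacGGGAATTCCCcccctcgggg
Nfkb2, chr19:46304716-46304745, plus strand: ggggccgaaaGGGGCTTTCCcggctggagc
Nfkb2, chr19:46305695-46305724, plus strand: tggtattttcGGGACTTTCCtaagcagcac
Tnfaip3, chr10:19015403-19015432, minus strand: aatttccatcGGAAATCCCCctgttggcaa
Bcl3, chr7:19822734-19822763, minus strand: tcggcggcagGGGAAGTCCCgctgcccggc
The Nfkbia match began 29 bases before the start and that of Tnfaip3 12 bases before it. In Rel a pair of overlapping matches, printed as a single run of capitals, began 92 and 91 bases before the start. The Bcl3 match began 2 bases after the start. The first Nfkb2 window held matches 39 and 11 bases before its start. A single further Nfkb2 match was shared by 2 windows, 10 bases after one start and 225 bases before the other. The windows of Rela and Nfkbie and the other Tnfaip3 window (chr10:19011914-19012213) held no consensus match. A match is a sequence of letters, and binding was not measured.

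Total counts per library ranged from 22382535 to 38062873 (median 28494877), and the lowest raw count of any of the 10 genes in any library was 150 (Bcl3, WT PBS replicate 5). All 10 lung markers, which include the surfactant genes Sftpc and Sftpb, were detected in every group. In WT PBS replicate 5 and Adm+/- PBS replicate 6, protein-coding genes took 77.8% and 80.1% of the reads counted, and elsewhere 84.3% to 87.6%. Adm itself was low, at 5.21 ± 1.66 CPM in WT PBS, 6.79 ± 2.03 in WT LPS, 3.69 ± 0.85 in Adm+/- PBS and 4.65 ± 1.42 in Adm+/- LPS (SD, n = 3). Its log2 difference between Adm+/- and WT was −0.50 in PBS (adjusted p = 0.999, edgeR) and −0.55 in LPS (adjusted p = 0.480, edgeR), and neither was called. CPM is a count scaled to the TMM-normalized library size. A gene was called when edgeR's quasi-likelihood test gave a Benjamini-Hochberg adjusted p below 0.05 and the absolute log2 fold change was above 0.5.

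**Figure D1:**
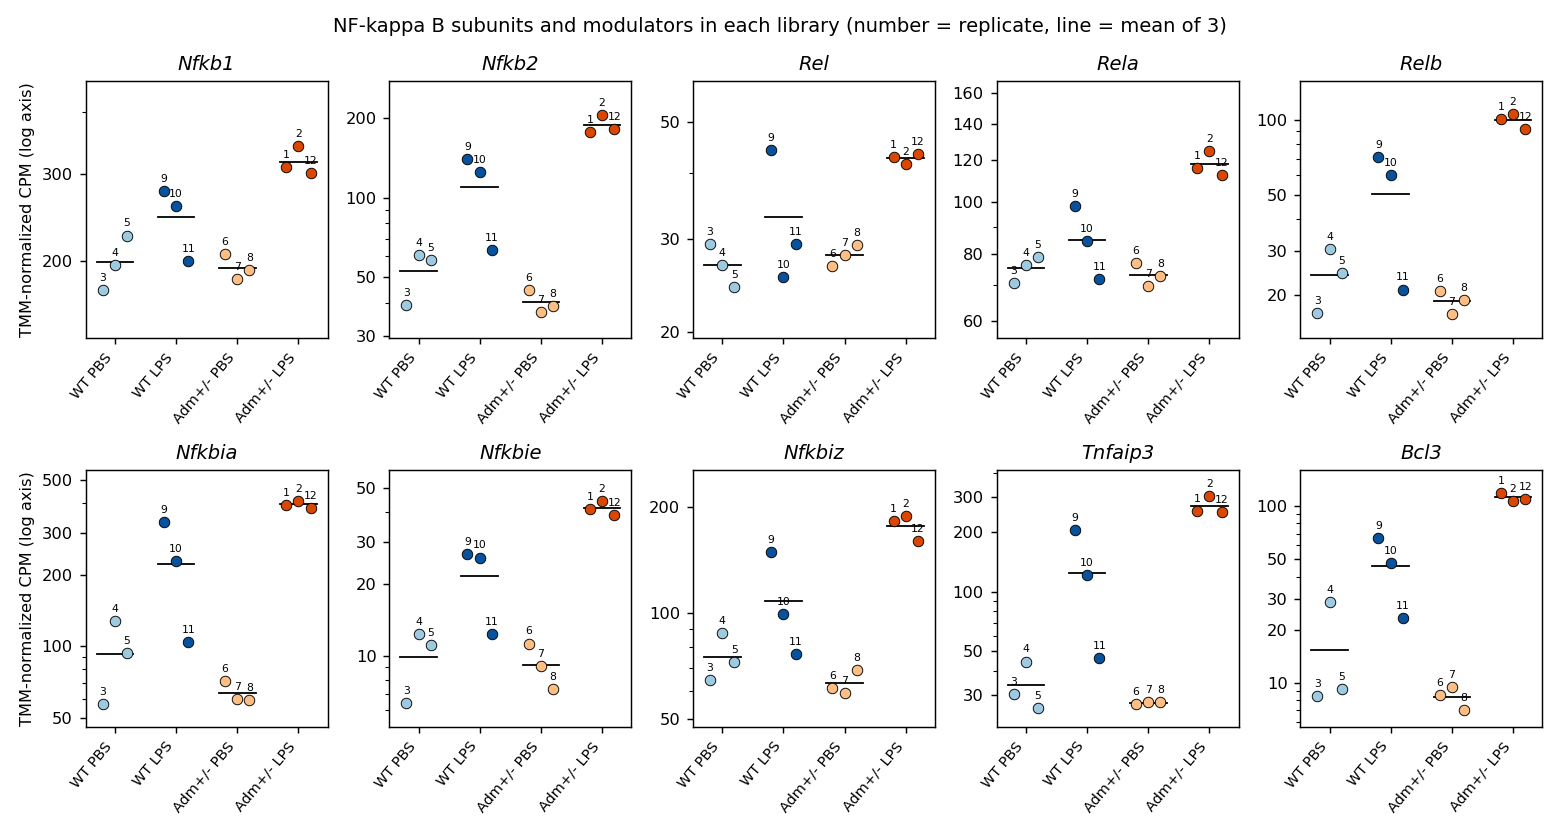
TMM-normalized CPM (log axis) of each of the 10 genes in the 12 libraries, with a point per library labelled by its replicate number and a line at the mean of 3. Every Adm+/- LPS point lies above every PBS point of both genotypes, while the WT LPS points spread out, with replicate 9 highest in all 10 panels and replicate 11 often at the height of the PBS points.

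Per kilobase of the exon union, Nfkbia had the highest level of the 10 genes in every group. With the longest transcript as the length it was also first in 3 groups, but in Adm+/- PBS Nfkb1 was first at 46.7 ± 2.76 CPM per kb, ahead of Nfkbia at 40.3 ± 4.41 (SD, n = 3). The levels that follow are per kilobase of the exon union. In Adm+/- PBS lungs Nfkbia stood at 39.5 ± 4.32 CPM per kb, followed by Rela at 23.8 ± 1.17, Nfkb1 at 16.1 ± 0.95, Nfkbiz at 12.6 ± 0.98, Nfkb2 at 8.76 ± 0.90 and Relb at 4.85 ± 0.51 (SD, n = 3), with no overlap between neighbours in that order. Tnfaip3, Rel, Bcl3 and Nfkbie followed between 3.82 and 3.03 CPM per kb, and each overlapped the next. WT PBS lungs had the same first 5 genes in the same order. There, however, the ranges overlapped from Nfkb1 downwards. After LPS in Adm+/- lungs the order was different below Nfkbia, which was at 246 ± 8.32 CPM per kb. Bcl3 came second at 45.3 ± 2.43, ahead of Nfkb2 at 41.1 ± 3.22, Rela at 38.3 ± 2.06, Tnfaip3 at 37.6 ± 4.12 and Nfkbiz at 35.4 ± 2.98, and each of these overlapped its neighbour. Rel was the lowest of the 10 in both LPS groups, at 4.42 ± 1.34 in WT and 5.72 ± 0.13 in Adm+/-.

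In WT mice LPS raised the mRNA of 6 of the 10 genes, namely Nfkb2, Relb, Nfkbia, Nfkbie, Tnfaip3 and Bcl3, by 2.09-fold to 3.69-fold. The other 4 (Nfkb1, Rel, Rela and Nfkbiz) were not called. Of all tested genes, 17.6% were called in this comparison and 10.5% were called higher. The median log2 fold change of the 10 genes was 1.08, against 0.01 over all tested genes. In whole lung, a change in the number of cells of a type and a change in RNA per cell cannot be told apart. Among the subunits, Nfkb2, the source of p52 in the non-canonical pathway, had 39.1, 60.6 and 57.9 CPM in WT PBS replicates 3, 4 and 5 and 140.5, 125 and 63.4 CPM in WT LPS replicates 9, 10 and 11. The 2 groups did not overlap (2 of the 10 genes, with Tnfaip3, against 18.3% of all tested genes), although LPS replicate 11 lay just above the highest PBS library. The log2 fold change was 1.06 (standard error, SE, 0.25; edgeR adjusted p = 0.0134). Relb, the usual partner of p52, had 16.9, 30.5 and 24.3 CPM in PBS and 71.1, 60.1 and 21 CPM in LPS. Its first 2 LPS libraries were high, and the third lay inside the PBS range. The fitted change of Relb was 1.09 on the log2 scale (SE 0.35, edgeR adjusted p = 0.0472). Relb kept its call in 2 of the 12 fits that left out a single library, those without WT PBS replicate 4 or WT LPS replicate 11. Its change was 0.76 without LPS replicate 9 and 1.46 without replicate 11, and without any one Adm+/- library the edgeR adjusted p was 0.0551 to 0.0672.

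The 3 subunits best known from the canonical pathway were not called in WT mice. Rela, whose product p65 is the main activating subunit, had 70.6, 76.2 and 79.1 CPM in WT PBS and 98.3, 84.5 and 72 CPM in WT LPS, a log2 fold change of 0.17 (95% interval −0.07 to 0.42, adjusted p = 0.286, edgeR). It was 0.05 without LPS replicate 9 and 0.28 without replicate 11. Nfkb1 had 175, 196 and 225 CPM in PBS and 276, 259 and 199.6 CPM in LPS, a log2 fold change of 0.30 (95% interval 0.01 to 0.59, adjusted p = 0.123, edgeR), which was 0.20 and 0.43 without the same libraries. LPS and PBS libraries of both genes overlapped through LPS replicate 11. Rel, the subunit known mainly from lymphoid and myeloid cells, had 29.3, 26.8 and 24.3 CPM in PBS and 44.3, 25.4 and 29.3 CPM in LPS, so that only LPS replicate 9 stood clearly above the controls. Its log2 fold change was 0.30 (95% interval −0.08 to 0.68, adjusted p = 0.230, edgeR), with 0.02 without LPS replicate 9 and 0.45 without replicate 10.

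Of the 5 modulators, 4 were called in WT mice (all but Nfkbiz). Tnfaip3 encodes A20, a ubiquitin-editing enzyme that shuts off signalling to the IkappaB kinase. It had 30.5, 44.5 and 26.1 CPM in WT PBS and 206, 121 and 46.1 CPM in WT LPS, a rise of 1.88 on the log2 scale (SE 0.40, edgeR adjusted p = 0.00777). Its groups did not overlap, but the lowest LPS library was close to the highest PBS library. Nfkbia encodes IkappaB alpha, the classical feedback inhibitor. Its level was 57.2, 128 and 93.2 CPM in PBS and 334, 228 and 105 CPM in LPS, a log2 fold change of 1.26 (SE 0.36, edgeR adjusted p = 0.0279). LPS replicate 11 fell below PBS replicate 4 for this gene.

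Nfkbie encodes IkappaB epsilon, a slower feedback inhibitor. It had 6.37, 12.4 and 11.1 CPM in WT PBS and 26.7, 25.8 and 12.4 CPM in WT LPS, with a log2 fold change of 1.12 (SE 0.30, edgeR adjusted p = 0.0234). Bcl3 is an atypical nuclear IkappaB that acts with p50 and p52 dimers. It had 8.43, 28.7 and 9.27 CPM in PBS and 66.2, 47.9 and 23.3 CPM in LPS, where PBS replicate 4 was more than 3 times as high as the other 2 PBS libraries and above LPS replicate 11. The log2 fold change of Bcl3 was 1.57 (SE 0.45, edgeR adjusted p = 0.0292). It was 2.37 without PBS replicate 4 (edgeR adjusted p = 0.00204) and 1.20 without LPS replicate 9, where it was not called (edgeR adjusted p = 0.138). Nfkbiz encodes the other atypical member, IkappaB zeta, a nuclear co-activator of secondary response genes. It had 64.5, 87.9 and 72.6 CPM in PBS and 149, 99.5 and 76.8 CPM in LPS, and its log2 fold change of 0.53 was not called (SE 0.20, edgeR adjusted p = 0.0824). The change of Nfkbiz was 0.23 without LPS replicate 9 and 0.73 without replicate 11.

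The WT calls depended on single libraries. Without WT LPS replicate 9, 1 of the 10 genes was called (Tnfaip3, log2 fold change 1.31), and 9% of all tested genes were called. Without WT LPS replicate 11, 7 were called, the 6 named above and Nfkbiz (log2 fold change 0.73), with 16.6% of all tested genes. With WT LPS replicate 10 or WT PBS replicate 3 left out 2 remained called in each case (Nfkb2 and Tnfaip3), where 16.6% and 19.1% of all tested genes were called. Without WT PBS replicate 5 there were 3, and 14.2% of all tested genes. In a fit of the 6 WT libraries alone, in which the WT spread was not averaged with that of the Adm+/- groups, none of the 10 was called (adjusted p from 0.0612 for Tnfaip3 to 0.466 for Rela, edgeR) and 7.39% of tested genes were. All fitted changes stayed above 0 in these fits.

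**Figure D2:**
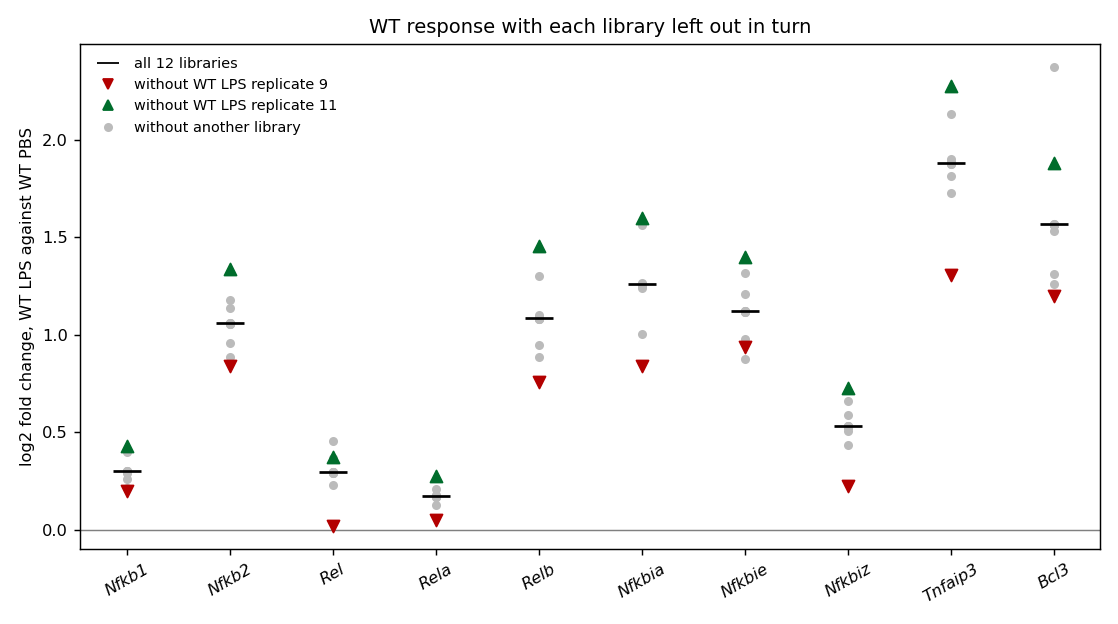
Log2 fold change of WT LPS against WT PBS for each gene, with all 12 libraries (bar), without WT LPS replicate 9 (red triangle), without WT LPS replicate 11 (green triangle) and without any other single library (grey points). For Tnfaip3 the value moved from 1.31 without replicate 9 to 2.27 without replicate 11.

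In Adm+/- mice LPS raised all 10 genes, from 1.52-fold for Rel to 13.4-fold for Bcl3. Every Adm+/- LPS library was above every Adm+/- PBS library for all 10 genes. Of all tested genes, 25% were called in this comparison, 12.8% were called higher, and 26.6% were higher without overlap. The median log2 fold change of the 10 genes was 2.20, against −0.01 over all tested genes. Bcl3 went from 8.52, 9.53 and 7.08 CPM in Adm+/- PBS replicates 6, 7 and 8 to 119, 108 and 110.1 CPM in Adm+/- LPS replicates 1, 2 and 12. Its rise of 3.74 on the log2 scale was the largest of the 10 (SE 0.48, edgeR adjusted p = 0.000261). Tnfaip3 went from 27.1, 27.9 and 27.7 CPM to 256, 306 and 253 CPM (log2 fold change 3.30, SE 0.42, edgeR adjusted p = 0.000247). The 3 control libraries of Tnfaip3 were within 1.03-fold of each other. Nfkbia went from 71.5, 59.7 and 59.3 CPM to 394, 411 and 384 CPM (log2 fold change 2.64, SE 0.37, edgeR adjusted p = 0.000413).

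Among the other modulators, Nfkbie went from 11.3, 9.09 and 7.32 CPM to 41, 44.3 and 38.8 CPM in Adm+/- mice (log2 fold change 2.16, SE 0.31, edgeR adjusted p = 0.000445). Nfkbiz went from 61.5, 59.5 and 68.9 CPM to 182, 189.6 and 161 CPM (log2 fold change 1.49, SE 0.21, edgeR adjusted p = 0.000394). All 5 modulators rose by more than 2-fold.

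The subunits split into 2 sets by the size of the Adm+/- response. The non-canonical pair rose by more than 4-fold. Relb went from 20.7, 16.8 and 19.0 CPM to 101, 106 and 91.7 CPM (log2 fold change 2.40, SE 0.36, edgeR adjusted p = 0.000638). Nfkb2 went from 44.8, 36.7 and 39 CPM to 178, 205 and 182 CPM (log2 fold change 2.23, SE 0.26, edgeR adjusted p = 0.000154). Nfkb1, Rela and Rel rose by less than 2-fold. Nfkb1 went from 206, 184 and 192 CPM to 309, 342 and 301 CPM (log2 fold change 0.71, SE 0.13, edgeR adjusted p = 0.00224). Rela went from 76.8, 69.6 and 72.8 CPM to 116, 125 and 112 CPM (log2 fold change 0.69, SE 0.11, edgeR adjusted p = 0.00104). Rel, at 26.7, 28.0 and 29.3 CPM in PBS and 42.9, 41.6 and 43.5 CPM in LPS, had a log2 fold change of 0.61 (SE 0.17, edgeR adjusted p = 0.0203). When single libraries were left out, 9 or 10 genes stayed called, and Rel was the gene lost, while 18.8% to 27.9% of all tested genes were called.

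**Figure D3:**
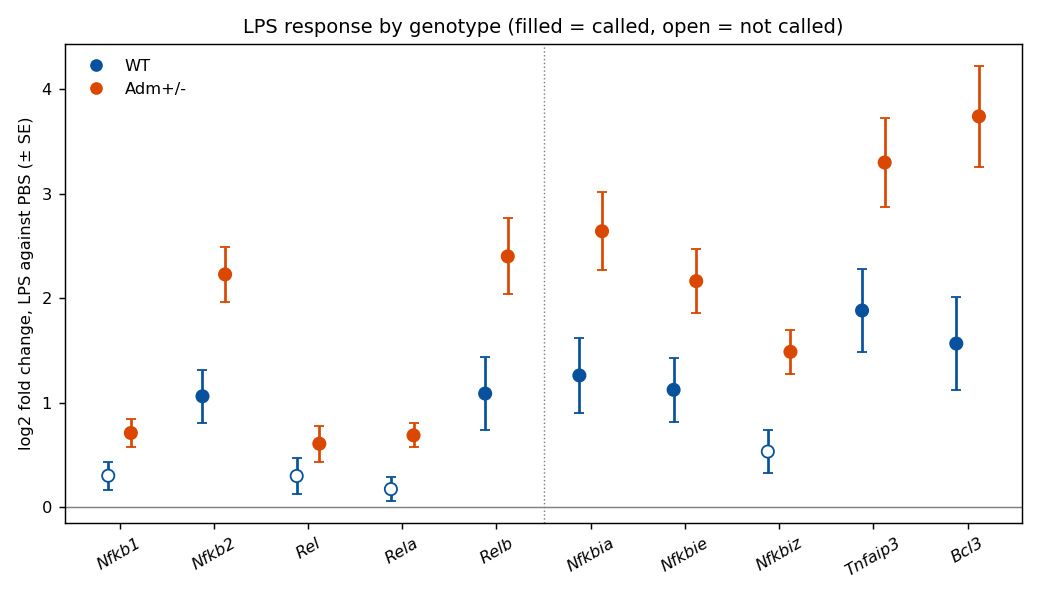
Log2 fold change of LPS against PBS (± standard error) for each gene in WT (blue) and Adm+/- mice (orange), with subunits left and modulators right of the dotted line and filled symbols for called genes. The Adm+/- value is above the WT value for all 10 genes, and Nfkb1, Rel and Rela have the smallest responses in both genotypes.

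The larger fitted response in Adm+/- mice was tested as the difference between the 2 responses. It was above 0 for all 10 genes, as for 48.8% of all tested genes, but none was called. At an unadjusted p below 0.05 there were 8, where 7.85% of all tested genes passed. Of all tested genes edgeR called 0.145%, and 0% were called higher in Adm+/- mice. DESeq2 called 1 of the 10 (Bcl3) and 1.06% of all tested genes, and limma-voom called 0 of the 10 and 0.0063% of all. Bcl3 had the largest difference at 2.17 on the log2 scale (95% interval 0.80 to 3.55, adjusted p = 0.382, edgeR), and the smallest was 0.31 for Rel (95% interval −0.22 to 0.84, adjusted p = 0.908, edgeR). Differences of 1.42 for Tnfaip3, 1.38 for Nfkbia, 1.31 for Relb, 1.17 for Nfkb2, 1.04 for Nfkbie, 0.95 for Nfkbiz, 0.51 for Rela and 0.41 for Nfkb1 lay between them, with adjusted p from 0.401 to 0.638 (edgeR). These sizes depended on single WT libraries. The difference of Bcl3 was 1.37 without WT PBS replicate 4 and 2.55 without WT LPS replicate 9, and that of Rel was 0.15 without WT LPS replicate 10 and 0.59 without replicate 9. For the other 8 genes the lowest value came without WT LPS replicate 11, and the highest without replicate 9 except for Nfkbie (1.29 without WT PBS replicate 3). Tnfaip3, for example, ran from 1.03 to 1.997.

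This difference has a part from the LPS groups and a part from the PBS groups, which use the same libraries as the responses above. With LPS, every Adm+/- library was above every WT library for 9 of the 10 genes, the exception being Rel, whose WT replicate 9 was the highest of the 12 libraries. Among all tested genes 12.2% had this order. The log2 difference between Adm+/- LPS and WT LPS ran from 0.37 for Rel and Nfkb1 to 1.29 for Bcl3, with Tnfaip3 at 1.13, Relb at 0.97 and Nfkbie at 0.93. None of the 10 was called, while 2.05% of all tested genes were and 0.327% were called higher. At an unadjusted p below 0.05 there were 9 of the 10, against 14.3% of all tested genes. Rela had the lowest adjusted p of the 10, with a log2 difference of 0.47, which is also under the fold threshold (95% interval 0.22 to 0.72, adjusted p = 0.0572, edgeR). DESeq2 called 4 of the 10 (Nfkb2, Nfkbie, Nfkbiz and Bcl3) and 5.06% of all tested genes, and limma-voom called 0 of the 10 and 1.79% of all. Without WT LPS replicate 9, edgeR called 4 (Rel, Rela, Nfkbiz and Tnfaip3) and 2.69% of all tested genes, and without WT PBS replicate 4 it called Bcl3 and 2.08% of all. The log2 difference of Rel was 0.21 without WT LPS replicate 10 and 0.65 without replicate 9. For the other 9 genes the lowest value came without WT LPS replicate 11 and the highest without replicate 9, as for Tnfaip3 (0.73 and 1.70), Relb (0.60 and 1.30), Nfkbia (0.50 and 1.255) and Bcl3 (0.98 and 1.66).

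In PBS the log2 difference between Adm+/- and WT ran from −0.88 for Bcl3 (95% interval −1.88 to 0.11) to 0.06 for Rel, with −0.55 for Nfkbia and −0.39 for Nfkb2. No gene was called (adjusted p = 0.999 for each, edgeR), and none of the 10 passed an unadjusted p below 0.05. DESeq2 and limma-voom called 0 as well. Over all tested genes 0% were called, and 2.17% had an unadjusted p below 0.05. WT PBS replicate 4 was the highest of the 6 PBS libraries for 7 of the 10 genes (all but Nfkb1, Rel and Rela), as it was for 12.8% of all tested genes. Without that library the difference was −0.07 for Bcl3, −0.24 for Nfkbia and −0.27 for Nfkb2, and without WT PBS replicate 3 it was −1.19, −0.80 and −0.56.

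The libraries of a group differed by unequal amounts. In WT LPS the median coefficient of variation of the 10 genes was 37.2%, against 11.6% over all tested genes. In Adm+/- LPS it was 6.76%, against 8.19%. WT LPS replicate 9 was the highest of its group for all 10 genes, as for 35.4% of all tested genes. The order 9, 10, 11 from high to low held for 9 of the 10 (all but Rel) and for 18.2% of tested genes. Replicate 11 lay above every PBS library for Nfkb2 and Tnfaip3 alone, whereas 25.2% of tested genes had that position. Relb shows the spread, with replicates 9, 10 and 11 at 2.98, 2.51 and 0.88 times the WT PBS mean. In contrast, the highest Adm+/- LPS library was within 1.21-fold of the lowest for each of the 10 genes.

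Markers of other cells moved with these groups, and their part in the results was not tested. The summed level of 12 neutrophil markers was 59.7 to 186 CPM in WT PBS, 1701 to 2966 in WT LPS, 40.8 to 68.5 in Adm+/- PBS and 1607 to 1924 in Adm+/- LPS, with 10 of 11 tested markers called higher with LPS in WT and 11 of 11 in Adm+/- mice. The highest library of the LPS groups was WT LPS replicate 9 and the highest of the PBS groups WT PBS replicate 4. WT LPS replicate 11, in which most of the 10 genes were at control levels, had 1830 CPM of neutrophil markers, and its monocyte and macrophage markers were the highest of all libraries at 2397 CPM. Those 14 markers summed to 1066 to 1327 CPM in the 6 PBS libraries and 1699 to 2397 in the 6 LPS libraries, and lymphocyte markers to between 36 and 66.8 CPM throughout. Markers of 2 tissues that do not belong to the lung parenchyma were also present in WT LPS. Skeletal muscle markers reached 778 to 2129 CPM there, against 18.7 to 58.2 in the other 9 libraries, and squamous epithelium markers 30.2 to 3018 CPM, against 4.76 to 47.0. Muscle markers summed to 2074, 2129 and 778 CPM in replicates 9, 10 and 11, and squamous markers to 3018, 30.2 and 1539 CPM. Of the muscle markers Myh4 was at 0 in WT PBS and Pvalb in both Adm+/- groups.

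The make-up of the subunit mRNA changed with LPS. As a share of the 5 subunits per kilobase of exon, Nfkb2 was 15.3 ± 0.68% in Adm+/- PBS and 29.95 ± 0.85% in Adm+/- LPS (SD, n = 3), and Relb was 8.46 ± 0.40% and 18.7 ± 0.67%. Both shares were higher in every Adm+/- LPS library than in every Adm+/- PBS library. Rela went from 41.6 ± 0.43% to 28.0 ± 0.24%, Nfkb1 from 28.1 ± 0.14% to 19.2 ± 0.14% and Rel from 6.57 ± 0.60% to 4.18 ± 0.34%, although the CPM of all 3 rose. In WT mice Nfkb2 made up 18.3 ± 2.28% in PBS and 26.2 ± 3.71% in LPS, and Rela 39.6 ± 2.44% and 31.7 ± 4.66%. WT LPS replicates 9 and 10 had Relb shares of 16.7% and 16.3%, while replicate 11 had 8.56%, inside the range of WT PBS (7.996% to 11.95%). The rank of Nfkb1 and Rela depended on the length used. The exon union of Nfkb1 is 12061 bases and its longest transcript 4149, and with the longest transcript Nfkb1 made up 49.9% and Rela 28.8% in Adm+/- PBS. Nfkb2 and Relb shares were higher with LPS under both lengths.

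**Figure D4:**
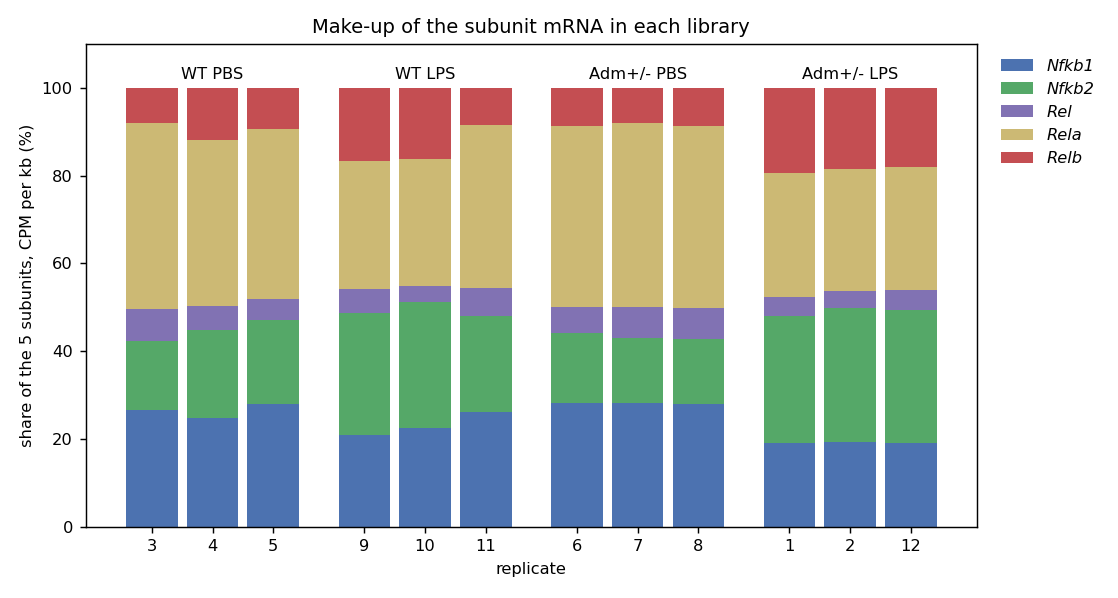
Share of each NF-kappa B subunit in the summed CPM per kb of the 5 subunits (%, stacked bars) in every library, grouped by genotype and treatment. Nfkb2 and Relb together take up more of the bar in the 3 Adm+/- LPS libraries and in WT LPS replicates 9 and 10 than in the PBS libraries, and WT LPS replicate 11 lies nearer to the PBS libraries.

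The mRNA of the modulators also differed relative to that of Rela. Per kilobase of exon, the ratio of Nfkbia to Rela was 1.66 ± 0.11 in Adm+/- PBS and 6.43 ± 0.13 in Adm+/- LPS, and 2.33 ± 0.83 in WT PBS and 4.804 ± 1.88 in WT LPS (SD, n = 3). WT LPS replicate 11, at 2.77, lay inside the WT PBS range (1.55 to 3.2), replicates 9 and 10 lay above it at 6.48 and 5.16, and the Adm+/- groups did not overlap. Bcl3 and Tnfaip3 per Rela were 0.14 ± 0.02 and 0.16 ± 0.01 in Adm+/- PBS, and 1.19 ± 0.10 and 0.98 ± 0.06 in Adm+/- LPS. Nfkbie per Rela was 0.13 ± 0.02 in Adm+/- PBS and 0.35 ± 0.01 in Adm+/- LPS. Nfkbiz per Rela was 0.53 ± 0.04 and 0.92 ± 0.04 in the same groups. In WT mice the LPS and PBS ranges of Bcl3 overlapped (0.40 to 0.84 and 0.15 to 0.47). Those of Nfkbiz did too (0.65 to 0.93 and 0.56 to 0.71). Those of Tnfaip3 (0.27 to 0.89 and 0.14 to 0.25) and Nfkbie (0.17 to 0.31 and 0.09 to 0.16) did not.

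The remaining IkappaB-like genes were Nfkbib, Nfkbid and Nfkbil1. Nfkbib encodes IkappaB beta, and its level was 13.98 ± 2.55 CPM in Adm+/- PBS and 31.1 ± 1.78 in Adm+/- LPS, a log2 fold change of 1.15 (adjusted p = 0.00126, edgeR). Nfkbid, which encodes the nuclear protein IkappaB NS, had a log2 fold change of 1.12 (adjusted p = 0.00111, edgeR) at a low level of 4.21 ± 0.46 and 9.14 ± 1.05 CPM. Nfkbil1, a relative by sequence only, was not called (log2 fold change −0.19, adjusted p = 0.672, edgeR). None of these 3 was called in WT mice, where their log2 fold changes were 0.49, 0.42 and −0.50.

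Upstream of IkappaB, 30 kinases, adaptors and ubiquitin ligases were listed and all were tested. LPS raised 7 in WT mice (23.3%, against 10.5% of all tested genes) and 14 in Adm+/- mice (46.7%, against 12.8%), and none was called lower. Their median log2 fold change was 0.22 and 0.42. The 3 most abundant were not called in either genotype. Those were Tab2 and Map3k7, which form the TAK1 complex, and Ikbkb, the catalytic IKK beta subunit, with log2 fold changes of 0.20, 0.13 and 0.31 in Adm+/- mice. Among the called genes, chosen here after their values were seen, Ikbke, a kinase related to the IKKs, rose by 2.1 in WT and 2.53 in Adm+/- mice on the log2 scale, and Myd88, the adaptor of Tlr4, by 0.91 and 1.70. Map3k14, the kinase NIK that triggers p100 processing, rose by 1.13 in Adm+/- mice. In WT mice its change of 0.37 was not called (adjusted p = 0.198, edgeR). The difference between its 2 responses, 0.76, was not called either (adjusted p = 0.501, edgeR). In LPS lungs Malt1 was the only one of the 30 called between genotypes, and it was 0.97 higher in Adm+/- mice on the log2 scale. That is 3.33% of the list, where 0.327% of all tested genes were called higher and 2.05% in either direction.

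Other negative regulators of the pathway were mostly not called. Of 22, LPS raised 7 in WT (31.8%, against 10.5% of all tested genes) and 9 in Adm+/- mice (40.9%, against 12.8%), and 1 fell in each genotype (Socs1 by 0.97 on the log2 scale in WT, Pdlim2 by 0.51 in Adm+/- mice, both named after their values were seen). The median log2 fold change was 0.37 in WT and 0.34 in Adm+/- mice. The largest rises, named after their values were seen, were those of Tnip3 (3.32 in WT and 4.40 in Adm+/- mice) and Irak3 (3.18 and 3.97). Zc3h12a (1.74 and 3.03) and Tnip1 (1.47 and 2.62) came next. The most abundant were Tax1bp1, an adaptor of A20, which rose by 0.67 in WT and 0.996 in Adm+/- mice, N4bp1, which rose by 0.89 and 1.07, and Otud7b, which was under the fold threshold in both with 0.22 and 0.38. None was called between the genotypes in LPS, where 2.05% of all tested genes were.

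Of 48 textbook target genes, 33 rose in WT (68.8%, against 10.5% of all tested genes) and 39 in Adm+/- mice (81.2%, against 12.8%), and none fell. Their median log2 fold change was 1.43 and 2.65. The 3 most abundant were Saa3, an acute phase protein, Lcn2, an iron-sequestering defence protein, and the complement component C3. Lcn2 had 19.3 to 62.4 CPM in WT PBS, 323 to 958 in WT LPS, 27.1 to 35.9 in Adm+/- PBS and 1187 to 1632 in Adm+/- LPS (n = 3). C3 reached similar levels in both LPS groups, 735 ± 66.9 CPM in WT and 743 ± 69.9 in Adm+/- mice (log2 difference 0.02, edgeR adjusted p = 0.991). Saa3 had 813 ± 452 CPM in WT LPS and 1488 ± 137 in Adm+/- LPS, and its PBS level was uneven, from 1.24 to 38.1 CPM in WT. Between genotypes in LPS 4 of the 48 were called higher in Adm+/- mice (Ier3, Cd83, Csf2 and Sele, named after their values were seen), with log2 differences of 0.78, 1.68, 1.42 and 2.52. They are 8.33% of the list, against 0.327% of all tested genes called higher. None of the 48 was called for the difference in response. Birc3 is both in this list and among the kinases and adaptors, and Traf1 both here and among the negative regulators.

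**Figure D5:**
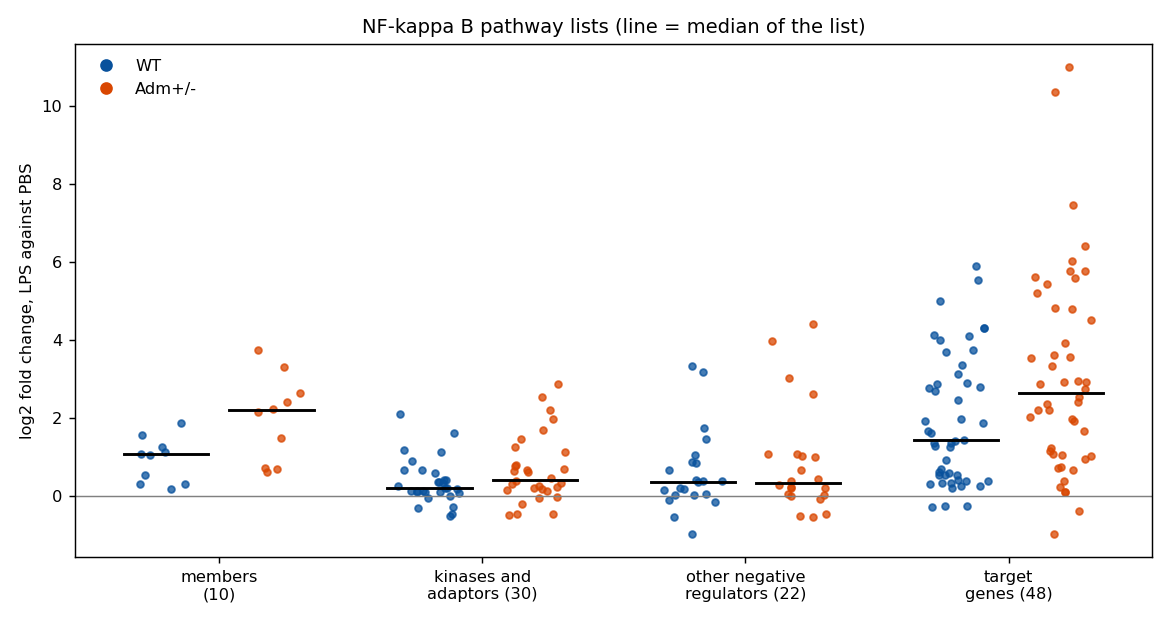
Log2 fold change of LPS against PBS in WT (blue) and Adm+/- mice (orange) for the 10 NF-kappa B genes, 30 kinases and adaptors, 22 other negative regulators and 48 target genes, with a point per gene and a line at the median. The medians of the 10 genes (1.08 and 2.20) and of the targets (1.43 and 2.65) lie above those of the kinases and adaptors (0.22 and 0.42) and of the other negative regulators (0.37 and 0.34).

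Likeness between genes over the 12 libraries was measured as the root mean square difference of log2 CPM, centred on each gene's own mean but not scaled, so a difference in the size of the response counts as distance. Nfkb1 and Rela differed by 0.07, and the genes nearest to them were Traf3 and Arhgap26 for Nfkb1 (0.06 each) and Asap2 for Rela (0.07). Rel was nearest to Pnrc1 and Mapk6 (0.11 each). Nfkb2 was nearest to Il4ra (0.09) and Sbno2 (0.13). Relb was the one gene whose 2 nearest patterns were both in the family, Nfkbia and Nfkb2 (0.19 each). Nfkbia was nearest to Sema7a (0.15) and Relb (0.19), Nfkbie to Icam1 (0.15) and Il4ra (0.16), and Nfkbiz to Acvr1b (0.11) and Arrdc4 (0.12). Bcl3 was nearest to Socs3 (0.12) and Cebpd (0.27), and Tnfaip3 to Slc39a14 and Sod2 (0.22 each), over ranges of 4.06 and 3.55 on the log2 scale. These are descriptions of 12 libraries that share 4 groups.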

How the data were processed

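Reads were trimmed with Trim Galore, aligned to mm10 with HISAT2 and counted on Gencode genes with featureCounts by the authors, who deposited raw counts per gene without normalization. A directional kit was used after rRNA depletion. The strand option and the Gencode release are not given in the sources used here. Gencode M21 was used for positions and lengths, and 99.7% of the 52550 genes were found in it. Of 21950 protein-coding genes, the 15885 that passed filterByExpr were normalized by TMM and tested by edgeR 4.0.16 (glmQLFit, glmQLFTest) in R 4.3.3, in 1 fit of 12 libraries with 8 residual degrees of freedom, 5 contrasts and Benjamini-Hochberg adjustment within each. Standard errors were derived from the fold change and its F statistic. Log2 CPM used a prior count of 2. None of the 12 pairs of libraries within groups was identical, and each differed by more than sampling noise. The members and gene lists were chosen with earlier results of these data known. Genes named outside the family were the 3 most abundant of each list (every other IkappaB-like gene) and the 2 nearest patterns of each member, unless stated. A single gene named by that rule is not reported here. Alternatives included DESeq2 1.42.0, limma-voom (limma 3.58.1), RLE size factors, other filters and call rules, and leaving out libraries. The labels name no sequencing batch. Reads carry no molecular identifiers. Promoter sequences are from RefSeq (GRCm38.p6).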

Additional observations from a re-analysis of the deposited data

How the results depend on the processing

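The count of the 10 genes called in WT mice was 6 and ranged from 1 to 7 with single libraries left out (9% to 19.1% of all tested genes). With the reported settings 17.6% of all tested genes were called, and the share in each other fit is given in brackets. The count was 5 with limma-voom (17.1%) or all annotated genes (13.2%), and Relb was lost in both. It was 6 with RLE size factors (17.5%), DESeq2 (20.9%), no filter on low counts (14.6%) or the adjusted p alone (21.3%), 1 with glmTreat (Tnfaip3, 6.3%), 0 in a fit of the 6 WT libraries (7.39%), and 3 without WT PBS replicate 5 and Adm+/- PBS replicate 6 (15.3%). Of 2 alternatives chosen after seeing the data, leaving out WT LPS replicate 9 and WT PBS replicate 4 gave 2 (8.67%), and leaving out WT LPS replicate 11 and WT PBS replicate 4 gave 7 (15.5%). In Adm+/- mice the count was 10 (25%) and never below 7 (glmTreat, 10.7%), and 9 to 10 with single libraries left out (18.8% to 27.9%). For the difference in response it was 0 (0.145%), or 1 with DESeq2 (1.06%). Between genotypes in LPS it was 0 (2.05%), 4 with DESeq2 (5.06%), 0 to 4 with single libraries left out (0.503% to 3.56%), 5 without WT LPS replicate 9 and WT PBS replicate 4 (2.92%), and 1 without WT LPS replicate 11 and WT PBS replicate 4 (1.02%). In PBS it was 0 throughout. The cause of these changes was not tested beyond the libraries left out. Fold changes of single genes kept their direction in all fits of the other 4 comparisons. In PBS, where no gene was called, 8 values changed sign. Nfkbie ranged from −0.354 to 0.0879 with single libraries left out (0.0358 without Adm+/- PBS replicate 8) and was 0.0887 without WT PBS replicate 4 and WT LPS replicate 9 or 11. Nfkb1 ranged from −0.119 to 0.0647 (0.00326 without Adm+/- PBS replicate 7) and was 0.0228 without WT PBS replicate 5 and Adm+/- PBS replicate 6. Rel ranged from −0.00496 to 0.129. With an arm of 2 libraries, the spread was shared with the other groups. No paired analysis was made, because the sample labels used here name no pairing between groups.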
